A study of Homo sapiens with 4 samples.

Results

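These results describe the human genes in which a single N6-methyladenosine (m6A) site was found in HEK293T mRNA, and how those lone sites differed between control cells and cells given ascorbic acid. HEK293T is a human embryonic kidney cell line. The members were chosen from the deposited site lists: a site had to lie in a named gene and be listed in every one of the 4 libraries, each time on 20 reads or more, and no other site of that gene could be listed in any library. The choice therefore used the listing, the read number and the number of sites per gene, and these are given below as description without a test. It left 273 genes, and so 273 sites, of 10782 genes with a site that could be compared and of 15209 genes with any listed site. The other comparable sites in named genes numbered 71205, of which 1824 were the only comparable site of a gene with further listed sites and 69381 lay in 8685 genes with at least 2 comparable sites. The series holds 2 libraries of control cells and 2 of cells that were grown for 24 h and then given ascorbic acid (vitamin C) for 36 h, with fresh medium every 6 h. The labels give neither the dose nor what the control cells received. They do not say that the 2 libraries of a group came from separate cultures, so a p-value below measures only how these 4 samples spread, which may be technical.

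m6A is laid on mRNA mainly by the METTL3 and METTL14 methyltransferase, which prefers an adenosine that follows G or A and precedes C, and it can be removed by FTO and ALKBH5, dioxygenases that need Fe(II) and 2-oxoglutarate and that ascorbic acid helps to keep active. A chemically related mark, N6,2'-O-dimethyladenosine (m6Am), is made by PCIF1 when the first transcribed base after the cap is an adenosine, and METTL4 makes it inside the U2 small nuclear RNA. The assay, GLORI, deaminates adenosine to inosine, which sequences as G, unless N6 carries a methyl group, in which case the base still sequences as A. The level of a site is the percent of its A plus G reads that carry A, and a methyl group at N6 of m6A and of m6Am is read in the same way.

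Some of the lone sites lay at or close to the annotated start of a gene and the others elsewhere, and sequences around a few of them are printed here. The lines below give 30 bases each, 15 before the site and 14 after it, on the transcribed strand, 5′ to 3′, from the RefSeq promoter windows of GRCh38.p14, with the site adenosine in capitals. The first 8 are the members with the most reads among those whose site lies up to 49 bases after the annotated start and has a RefSeq sequence here, and 7 of them have the site at the start itself. No sequence is printed for ATP5F1B, PTMAP13 and POLR2G, start members that also had many reads.
COX8A, a subunit of cytochrome c oxidase, chr11:63974605-63974634, plus strand: ccggccagcgcagccAttttggcttcctga
NDUFB1, a complex I subunit, chr14:92121692-92121721, minus strand: gaggtcgcagcttccActggcgcgggttga
NDUFS6, a complex I subunit, chr5:1801392-1801421, plus strand: gccgggtcaaaggccAgcggcgcaaaatgg
MT1X, a metallothionein, chr16:56682455-56682484, plus strand: cggcttctgggctccAccacgcttttcatc
TXNDC5, a protein disulfide isomerase, chr6:7910774-7910803, minus strand: ggcgagagcgcgcccAgccccgccgcgatg
RPL17-C18orf32, a readthrough gene, chr18:49492451-49492480, minus strand: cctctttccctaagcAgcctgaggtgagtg
RPL10A, a ribosomal protein, chr6:35468386-35468415, plus strand: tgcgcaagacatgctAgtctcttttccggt
SNRPF, a core protein of spliceosomal snRNPs, with the site 13 bases after the start, chr12:95858950-95858979, plus strand: tcctgtttggcggccAtttctcttgaaact
The next 3 are the members in the same RefSeq windows, away from the start, whose site has G before it and C after it. They were chosen for these letters, so their contrast with the start sites is set by the choice. Of the 5 members in the windows away from the start 3 have these letters, and SNRPF has C before its site. ATP5MD, with its site 12 bases before the start, has G before its site but no C after it, and is not printed.
ERCC5, an endonuclease of nucleotide excision repair, 10 bases before the start, chr13:102846007-102846036, plus strand: acggccattctctggAcctgtctttcttcc
UBE2M, the NEDD8-conjugating enzyme, 32 bases after the start, chr19:58558565-58558594, minus strand: ccaggccggagccggActacgggagccgag
LOC100130283, 21 bases after the start, chr16:8849475-8849504, plus strand: gttcctgatgcacagActcctcccccgctg

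Of the 273 genes, 121 were pseudogenes in RefSeq (104 pseudogenes and 17 transcribed pseudogenes), 99 were protein coding, 22 were long noncoding RNAs, 7 were small RNA genes and 24 had no RefSeq match. Pseudogenes made up 44.3% of the members and 6.39% of the other genes with a comparable site, and protein coding genes 36.3% and 88.8%. Put the other way, 15.3% of the comparable pseudogenes and 1.05% of the comparable protein coding genes were members. The genes were short: the median gene span, introns included, was 2716.5 bases against 28535.5 bases for the other sites' genes, and 13079 against 32338 bases among protein coding genes alone. Their median deposited gene coverage was 75.3 against 99.03 for other genes. Sites of members had fewer reads, with a median lowest read number over the libraries of 54 against 92. Span, coverage and read number thus moved with membership, and their part in it was not tested.

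**Figure D1:**
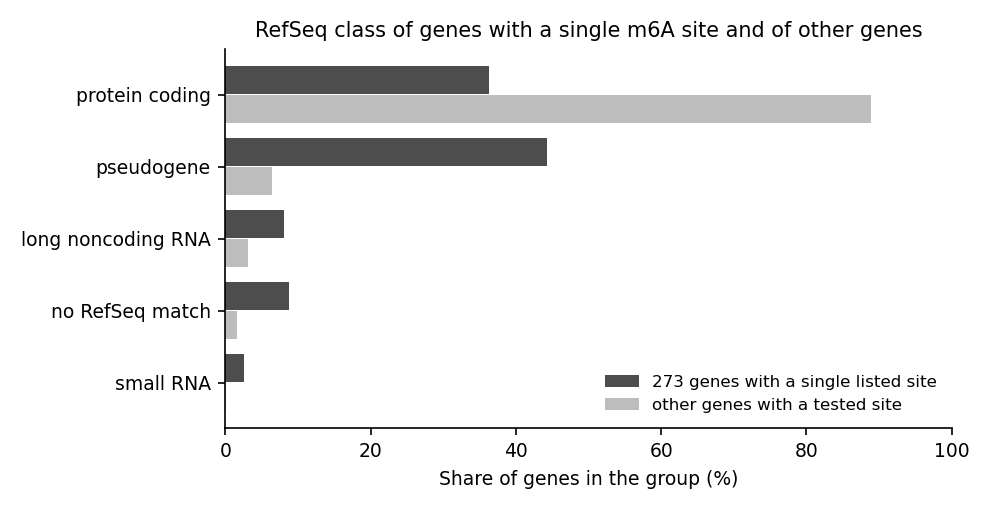
The bars show the share of genes (%) in each RefSeq class for the 273 genes with a single listed site (dark) and for the other genes with a comparable site (light). Pseudogenes make up 44.3% of the first group and 6.39% of the second. The class labelled small RNA also takes every RefSeq class not shown, so in the second group it is not small RNA alone.

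The read limit of 20 set the edge of the group. Members with a lowest read number of 20 to 24 numbered 35 and had median levels of 44.0% and 47.2% in the control libraries against 41.4% and 40.0% under ascorbic acid. Just outside, 26 genes with 1 site listed in all 4 libraries and a lowest read number of 15 to 19 had medians of 59.2%, 56.7%, 43.7% and 44.8%. Many more genes had 1 listed site in all, 2013, but for 1277 of them the site was listed in a single library and for 299 in all 4. Another 253 genes had 1 comparable site and 1 further listed site, with medians of 30.5% and 33.3% in control and 27.8% and 25.6% under ascorbic acid.

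The libraries held 132989 to 144171 listed sites, and the members took up 108546 to 125961 A plus G reads in each. Between the 2 libraries of a group the member sites differed by a chi-square of 1.35 per site in control and 1.20 under ascorbic acid, where 1 is counting error alone. A level of 29.6% from 16 of 54 reads has a 95% Wilson interval of 19.1% to 42.8%, and such intervals cover counting error only, since repeated reads of 1 molecule are not told apart here. Of 7 HEK293T markers, 6 were listed in all 4 libraries and PAX2 in none, while the blood, liver, endothelial and muscle markers were listed in none. Of the fibroblast markers, COL1A1 was listed in 3 of 4 libraries, at a deposited coverage of 29.6 in control replicate 2 and of 34.1 and 36.5 under ascorbic acid, and COL1A2 and DCN in none.

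The lone sites were methylated at low to middle levels and were lower with ascorbic acid. Their median level was 33.7% and 33.8% in the control libraries against 28.6% and 29.4% under ascorbic acid. Both treated libraries thus lay below both controls, at 29.0% ± 0.594 against 33.7% ± 0.0778 (SD, n = 2 each), a difference of -4.74 points. An exact two-sided permutation test over the 4 libraries gave p = 0.333, which is the smallest p that 2 against 2 allows. The other comparable sites in named genes started higher and lay further apart between the groups, at a median of 41.1% ± 1.18 in control and 33.7% ± 0.106 under ascorbic acid, a difference of -7.36 points. The gap between members and other sites was -6.58 and -8.15 points in the control libraries against -5.24 and -4.25 points under ascorbic acid, so that the difference of the 2 changes was 2.62 points (exact permutation p = 0.333, the smallest possible). Against the 1824 genes with 1 comparable site and further listed sites, which had the same control median of 33.7%, this difference was 1.44 points.

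Per site, edgeR's quasi-likelihood test with Benjamini-Hochberg adjustment over all 78509 comparable sites called 50 members lower and 1 higher with ascorbic acid, and 222 did not pass. Over all comparable sites 25.7% were called lower and 0.22% higher. Among members the shares were 18.3% and 0.366%. The count rests on the test and the libraries: limma called 22 members lower, of which 18 were among the 50, DESeq2 called 17, all of them among the 50, and leaving out 1 library gave 40 (without control replicate 1), 27 (without control replicate 2), 30 (without ascorbic acid replicate 1) and 25 (without ascorbic acid replicate 2). All 50 kept their direction in each of those fits. Both treated libraries lay below both controls at 113 members and above both at 23, shares of 41.4% and 8.42%, where all comparable sites gave 55.4% and 4.22%. The members called lower had a median lowest read number of 123.5, against 48.5 for those not called, and their median level was 48.3% in control and 30.9% under ascorbic acid. Of the 58 members above 60% in control 17 were called lower, and of the 121 under 30% 13 were. By mean level over the 4 libraries, edgeR called 13.6% of members and 12.8% of the other sites in named genes lower at 10 to 30%. The shares were 24.2% and 26.6% at 30 to 60%, 22.0% and 48.3% at 60 to 90%, and 0% and 47.3% at 90% and over, where 5 members lay. All 17 members whose mean level was over 20 points lower with ascorbic acid passed the edgeR test.

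**Figure D2:**
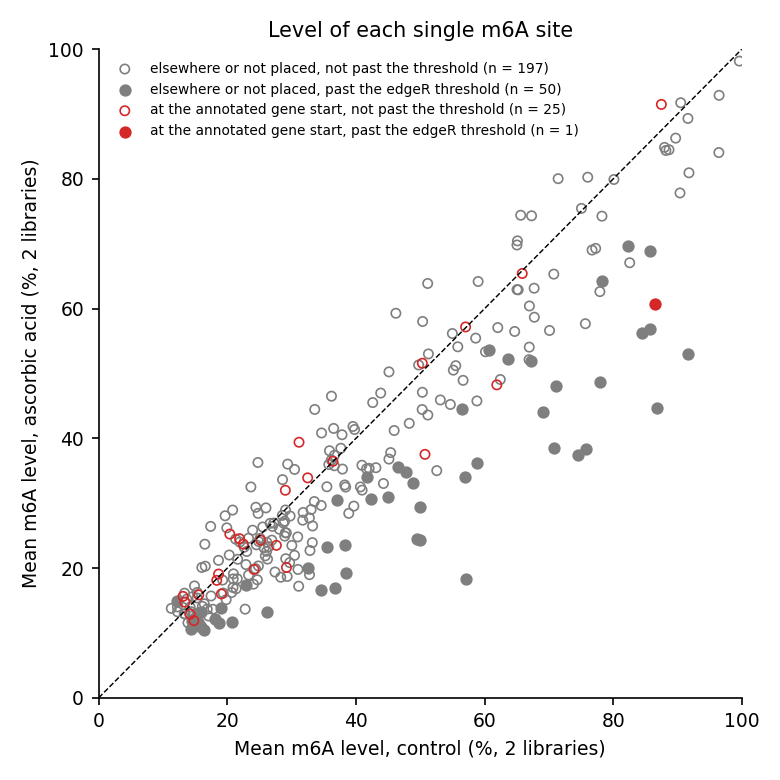
Each point is 1 of the 273 single sites, with its mean level in the 2 control libraries on the horizontal axis and in the 2 ascorbic acid libraries on the vertical axis (both %); the dashed line marks equal levels, red marks sites at the annotated gene start and filled points passed the edgeR threshold of 0.05. Of the 26 red points 1 is filled, and of the grey points 50 are.

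Some of the lone sites lay at the gene start. Of 248 members that could be placed against a RefSeq gene, 26 (10.5%) had their site between 5 bases before and 4 bases after the annotated gene start, and 18 of these lay exactly on the first base. Among the other sites in named genes 962 of 70687 (1.36%) lay in that window, 708 of them on the first base. Members have 1 site per gene and other genes have several, so the share was also counted by gene: 912 of 10344 other placed genes (8.82%) had at least 1 comparable site in the window, and of 1770 placed genes with 1 comparable site and further listed sites 135 (7.63%) had it there. Counted by gene, 10.5% of the members thus stands near these shares, and the difference was not tested. The 26 were 16 protein coding genes and 10 pseudogenes, so that 16.2% of the 99 protein coding members lay at the start. Of the other sites in protein coding genes 1.37% did, but that share is per site of genes with several sites and is no like comparison. For protein coding genes alone the share by gene was not counted. The window was set after an earlier look at these data.

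**Figure D3:**
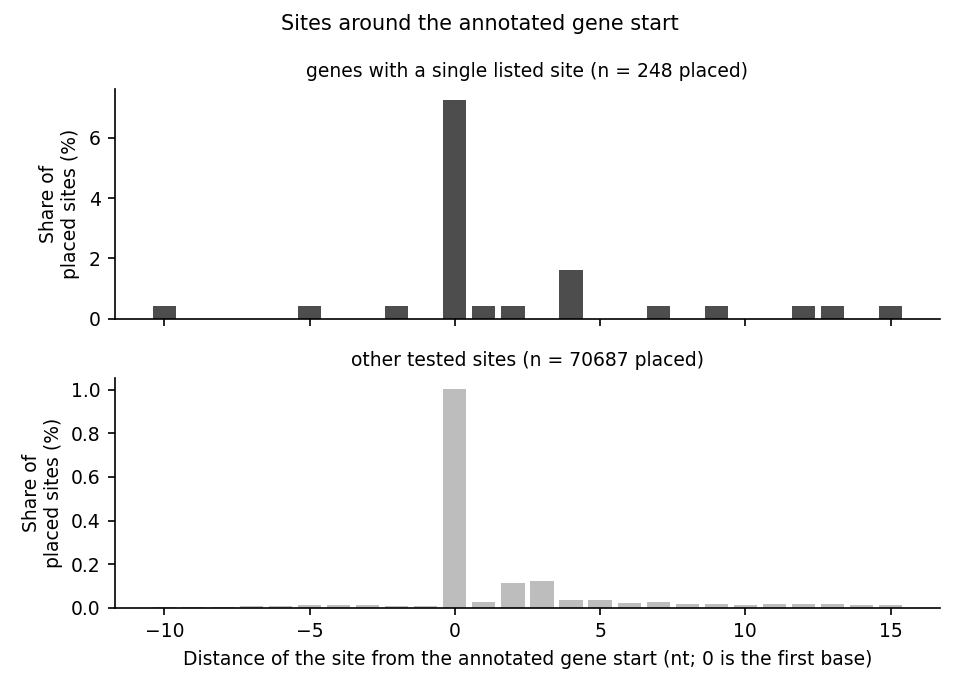
The bars give the share of placed sites (%) at each distance, in nucleotides, from the annotated gene start for the 248 placed single sites (top) and the 70687 other placed sites (bottom); the 2 vertical scales differ. Both panels peak at distance 0, where 18 single sites and 708 other sites lie.

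Sequence was at hand for 13 of the 26 members at the start. The site was an adenosine in all 13, as the assay requires, and 10 had C before it (the letters CA, read on the transcribed strand at the site). Of the other sites at the start with sequence, 75.6% of 757 had CA. Over all 34943 RefSeq promoter windows 15520 (44.4%) had A at the annotated start, and 10350 (29.6% of all windows) had CA across it. A listed site is always an adenosine, so the like background is 10350 of the 15520 starts with A. The context thus also belongs to many starts without a listed site. None of the 13 had GAC at the site, against 3.30% of the other start sites, and 3 of the 5 members elsewhere in the window had it (ERCC5, UBE2M and LOC100130283, printed above). A match of letters describes the window and does not show which enzyme acted, and whether the start sites are m6A or m6Am was not tested.

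At the gene start, levels in the 2 groups overlapped. The median of the 26 members there was 24.1% and 25.4% in control and 23.0% and 25.5% under ascorbic acid, a difference of -0.548 points (exact permutation p = 1). Of these 26 members 1 passed the edgeR test, lower with ascorbic acid, while 48 of the 222 members elsewhere did (3.85% and 21.6%). For the other sites in named genes the background was 0.936% called lower at the start and 27.6% elsewhere. Members elsewhere had medians of 34.7% and 34.8% in control and 28.8% and 30.1% under ascorbic acid. The gap between start and elsewhere was -10.6 and -9.31 points in the control libraries against -5.88 and -4.53 points under ascorbic acid, a difference of 4.73 points (exact permutation p = 0.333, the smallest possible). Level and depth differed between the 2 classes: sites at the start had a lower control median and a median lowest read number of 182.5 against 51.5. Among sites with at least 100 reads in every library, 0 of 15 at the start and 27 of 68 elsewhere were called lower by edgeR. Within a mean level of 10 to 30% the counts were 0 of 15 and 18 of 104, and within 30 to 60% they were 0 of 8 and 23 of 81. In the classes with fewer start sites they were 1 of 3 and 7 of 32 at 60 to 90%, 0 of 6 and 14 of 109 at 20 to 49 reads, and 1 of 5 and 7 of 45 at 50 to 99 reads, so the order of the shares was not the same in every class. In the thinly filled classes the difference in medians had the other sign, at -7.22 points between 60 and 90% (3 sites at the start) and -1.82 points at 20 to 49 reads (6 sites at the start).

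**Figure D4:**
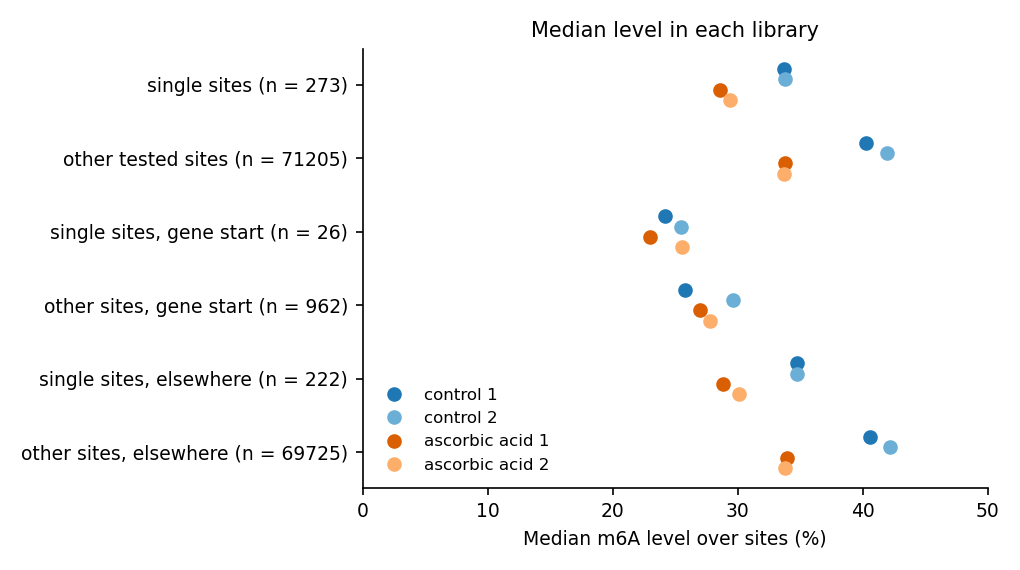
Each dot is the median m6A level (%) over the sites of a class in 1 library, blue for the 2 control and orange for the 2 ascorbic acid libraries. The treated dots lie below the control dots in the classes of all and of elsewhere sites, and the 4 dots of the single sites at the gene start lie between 23.0% and 25.5%.

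Several start sites belong to well known housekeeping genes with deep reads. ATP5F1B, the beta subunit of ATP synthase, had its site on the first base (chr12, position 56645984, minus strand) at 65.0% and 66.8% in control and 64.7% and 66.1% under ascorbic acid, on 3365 to 5315 reads. The 4 values overlap, and edgeR gave a log2 change in the odds of A of -0.03 (adjusted p = 0.846). COX8A, printed above, lay at 17.5% and 19.2% in control and 17.4% and 18.8% under ascorbic acid on 3803 to 5955 reads, again overlapping (adjusted p = 0.868, edgeR). MT1X stood at 51.1% and 49.5% in control and 51.9% and 51.3% under ascorbic acid on 499 to 860 reads (adjusted p = 0.706, edgeR), with both treated values slightly above both controls. TXNDC5 had 57.3% and 56.8% in control and 59.1% and 55.3% under ascorbic acid on 197 to 387 reads (adjusted p = 0.955, edgeR). POLR2G, a subunit of RNA polymerase II (chr11, position 62761580), had 20.4% and 24.6% in control and 23.3% and 24.1% under ascorbic acid (adjusted p = 0.788, edgeR). In both genes the treated libraries overlapped the controls. RPL10A had 27.2% and 30.9% in control and 31.4% and 32.6% under ascorbic acid, higher in both treated libraries but not past the test (adjusted p = 0.511, edgeR). Besides ATP5F1B, the start members at 60% or more in control without a call were MLF2 and FTH1P12, a ferritin heavy chain pseudogene, both picked out after their values were seen. FTH1P12 had 96.9% and 78.1% in control and 89.7% and 93.3% under ascorbic acid on 29 to 45 reads, and MLF2, a member of the myeloid leukemia factor family, had 65.0% and 58.8% in control and 50.0% and 46.5% under ascorbic acid on 30 to 51 reads (adjusted p = 0.203, edgeR). At such depth a drop of that size did not pass the test.

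The start site called lower was that of SDHCP3, a pseudogene of the succinate dehydrogenase subunit SDHC, on chr2 at position 23943821, 2 bases before the annotated start. Its level was 88.1% and 84.9% in control and 68.5% and 52.8% under ascorbic acid on 53 to 59 reads, with no overlap (adjusted p = 0.000507 with edgeR and 0.0319 with limma). Without ascorbic acid replicate 2 it did not pass (adjusted p = 0.0627, edgeR), which left 0 of the 26. SDHC itself has a comparable site on its first base, within 20 bases of the same distance from the start, at 73.1% ± 1.93 in control and 68.4% ± 0.525 under ascorbic acid (SD, n = 2 each). It had 761 to 964 reads and was also called lower (adjusted p = 0.0426, edgeR), where 9 of the 962 other start sites were.

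Some lone sites stood close to listed sites outside any named gene. Of the 273 members 13 had another listed site within 50 bases on the same strand, and every such neighbour was assigned by the authors to no named gene. For 9 of the 13, among them ATP5F1B, COX8A, MT1X, NDUFB1, NDUFS6, POLR2G and RPL10A, the member lay at the gene start and all neighbours lay upstream of it. For ATP5F1B, NDUFS6 and PTMAP13 the nearest neighbour was 7 bases away. The median distance from a member to the nearest listed site was 40278 bases, against 34 bases for other sites in named genes. The choice of members allowed no other listed site in the same gene, so this difference follows from the choice and is no finding.

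Farther into the gene, 13 members lay 5 to 49 bases after the start, and 1 of them was called lower. For the other sites in that stretch with sequence, 10 of 45 with GAC or AAC at the site and 1 of 204 with neither were called lower by edgeR, which describes sites that are no members. The member called lower was SLC25A41, a mitochondrial carrier that exchanges ATP-Mg and phosphate, 12 bases after its start on chr19 (position 6436255). It had 88.5% and 82.8% in control and 59.1% and 54.5% under ascorbic acid on 154 to 198 reads, with no overlap (log2 odds -2.19, adjusted p = 6.13e-09 with edgeR and 0.0156 with limma). UBE2M had 25.3% and 32.9% in control and 20.0% and 22.9% under ascorbic acid, and SNRPF 23.3% and 23.3% in control and 25% and 24.2% under ascorbic acid. Neither passed the test (adjusted p = 0.293 and 0.645, edgeR).

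Among the 83 protein coding members away from the start, the calls were counted by distance from the annotated end of the gene. Within 1000 bases of the end 14 of 34 (41.2%) were called lower, where 29.8% of the other sites at that distance in protein coding genes were, from a median of 37.8% ± 2.09 in control to 31.2% ± 0.0463 under ascorbic acid (SD, n = 2 each). From 1000 to under 5000 bases from the end 7 of 19 were (36.8%, against 22.8% of the other sites), and medians of 25.3% and 33.3% in control overlapped 25.8% and 28.0% under ascorbic acid. At 5000 bases or more 5 of 30 were (16.7%, against 32.5% of the other sites), and medians of 35.5% and 39.0% in control stood beside 35.4% and 33.4% under ascorbic acid. The other sites showed no such fall in share with distance, and the difference between members and other sites in these shares was not tested. Distances are along the genome with introns included, and whether a site lies in an exon, an intron or a UTR was not analysed here. Over all placed members, those within 1000 bases of the end changed by -3.93 points relative to the rest (not tested), a value that leaving out a control library moved to -1.48 or -6.38.

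The largest falls with at least 50 reads in every library were spread over coding genes and pseudogenes. LOC100420774, a pseudogene on chr2 (position 73877489), was 73.0% and 78.5% in control and 38.7% and 37.9% under ascorbic acid on 173 to 246 reads, a change of -37.4 points (log2 odds -2.35, adjusted p = 5.64e-12 with edgeR and 0.00899 with limma). HBQ1, the theta-1 globin gene, has its site on chr16 at position 181109, 70 bases before the end of the gene, with 82.1% and 86.7% in control and 55.7% and 56.8% under ascorbic acid on 56 to 83 reads (adjusted p = 2.72e-05 with edgeR and 0.0135 with limma). Together with SLC25A41 and SDHCP3 these changed by -25.8 to -37.4 points. The choice of these falls required groups without overlap, so their separation is no finding.

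CASTOR1, an arginine sensor upstream of mTORC1 (chr22, position 30285563), was at 41.0% and 35.8% in control and 19.8% and 18.8% under ascorbic acid (adjusted p = 0.00361 with edgeR and 0.0225 with limma). UBE2E4P, a transcribed pseudogene of a ubiquitin-conjugating enzyme on chromosome X (position 14244974), was at 86.7% and 84.6% in control and 67.9% and 70.0% under ascorbic acid (adjusted p = 0.00278 with edgeR and 0.0289 with limma). AP1S2P1, a pseudogene of an AP-1 adaptor subunit (chr7, position 97437874), was at 36.4% and 40.2% in control and 23.0% and 24.1% under ascorbic acid (adjusted p = 0.00137 with edgeR and 0.0446 with limma). CASTOR1 was not called without ascorbic acid replicate 2 (adjusted p = 0.0515, edgeR), nor UBE2E4P without control replicate 1 (0.0762). With DESeq2 none of CASTOR1, UBE2E4P and AP1S2P1 passed (adjusted p = 0.128, 0.0964 and 0.0829). The last 3 of the 10 passed with neither limma nor DESeq2. ERCC5, printed above, had 37.0% and 60.9% in control and 32.8% and 33.3% under ascorbic acid (adjusted p = 0.0371 with edgeR and 0.245 with limma), so its 2 controls lay farther apart than the lower control and the treated libraries. Without control replicate 2 its log2 odds change of -1.03 became -0.25 (adjusted p = 0.808, edgeR) and without control replicate 1 -1.65 (0.00478), and without either ascorbic acid library it was not called (0.182 and 0.211). UNC93B8 had 64.6% and 69.9% in control and 51.1% and 52.9% under ascorbic acid (adjusted p = 0.0211 and 0.0679), and BRI3P3 42.0% and 48.0% in control and 31.6% and 30.4% under ascorbic acid (adjusted p = 0.00156 and 0.0769, edgeR and limma). UNC93B8 was called by edgeR only with control replicate 2 and both ascorbic acid libraries in the fit (adjusted p = 0.235, 0.116 and 0.0933 without them), and BRI3P3 only with control replicate 2 and ascorbic acid replicate 2 (0.064 and 0.0545).

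**Figure D5:**
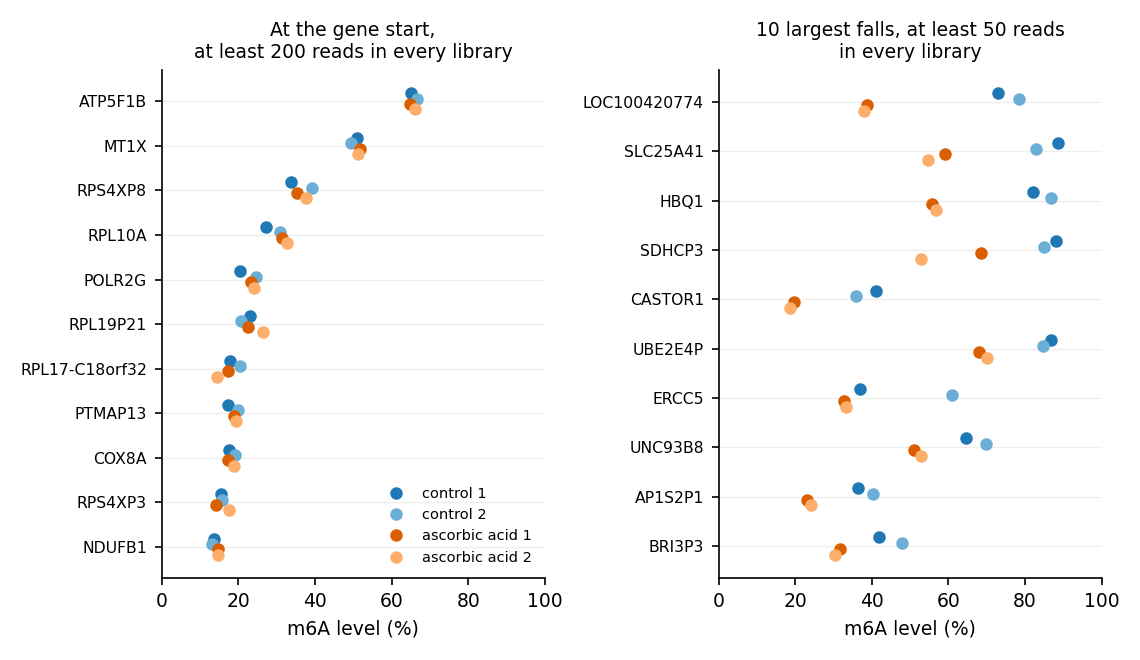
Each dot is the m6A level (%) in 1 library for the 11 single sites at the gene start with at least 200 reads in every library (left) and for the 10 largest falls past the edgeR threshold on 50 reads or more per library (right), blue for control and orange for ascorbic acid. On the left the colours lie side by side, as for COX8A between 17.4% and 19.2%. On the right the colours are apart, as for LOC100420774, because only sites without overlap between the groups were taken.

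With no read minimum, 6 of the 50 were called lower in each of the 10 settings run on them: ERC2, GPAA1P1, HBQ1, LOC100419643, LOC100420774 and SLC25A41. Of these ERC2, GPAA1P1 and LOC100419643 are named here after their values were seen. ERC2, a scaffold of the presynaptic active zone, had 90.9% and 92.3% in control and 54.2% and 51.9% under ascorbic acid on 24 to 33 reads. GPAA1P1 had 51.4% and 62.8% in control and 18.2% and 18.4% under ascorbic acid on 33 to 43 reads. In both, and in LOC100419643, which changed by -42.2 points, the groups did not overlap.

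Other called falls lay in coding genes of varied function, all named here after their values were seen. IDH1, the cytosolic isocitrate dehydrogenase (chr2, position 208236881, 654 bases before the end of the gene), had 14.1% and 23.3% in control and 10.8% and 12.3% under ascorbic acid (adjusted p = 0.0114 with edgeR and 0.18 with limma). TIMP1, an inhibitor of matrix metalloproteinases on chromosome X (position 47585559), had 18.3% and 19.6% in control and 13.7% and 14.1% under ascorbic acid on 1257 to 1631 reads (adjusted p = 0.000639 with edgeR and 0.128 with limma). UTP4, a protein of small subunit processing in the nucleolus, had 36.1% and 34.8% in control and 22.9% and 23.6% under ascorbic acid (adjusted p = 4.11e-05 with edgeR and 0.0574 with limma). The groups were apart in all 3, but IDH1 was called by edgeR in 1 of the 4 fits that left out a library, and without control replicate 2 its log2 odds change of -0.83 became -0.34 (adjusted p = 0.551, edgeR). OST4, the smallest subunit of the oligosaccharyltransferase, had its site 21 bases before the end of the gene, at 43.3% and 41.4% in control and 31.4% and 30.1% under ascorbic acid. For OST4 the adjusted p was 0.00088 with edgeR, but 0.0902 with limma and 0.0672 with DESeq2. BRI3 (chr7, position 98291334) had 48.8% and 46.7% in control and 36.1% and 33.4% under ascorbic acid on 596 to 751 reads, close to its pseudogene BRI3P3 given above. For BRI3 the adjusted p was 6.92e-06 with edgeR and 0.00303 with DESeq2, but 0.0814 with limma. The factor TFAP2B and the chemokine XCL1 had changes of -25.0 and -32.2 points on reads that went down to 33 and 27. By edgeR neither was called without control replicate 2 (adjusted p = 0.0632 and 0.192), TFAP2B not without ascorbic acid replicate 1 (0.236) and XCL1 not without ascorbic acid replicate 2 (0.16). The log2 odds change of XCL1, -2.13, became -1.30 without control replicate 2.

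The members with the most reads were RACK1, PTMAP13, UQCRH, RPL8P4 and COX8A, the last given above. RACK1, a scaffold protein of the small ribosomal subunit (chr5, position 181239108), had 16.2% and 16.6% in control and 10.1% and 10.97% under ascorbic acid on 14982 to 18780 reads (log2 odds -0.74, adjusted p = 2.6e-10 with edgeR and 0.052 with limma). UQCRH, the hinge protein of complex III (chr1, position 46316593), had 14.4% and 14.3% in control and 10.7% and 10.5% under ascorbic acid on 7745 to 9589 reads (log2 odds -0.50, adjusted p = 7.31e-06 with edgeR and 0.117 with limma). The groups were apart in both. PTMAP13, a prothymosin alpha pseudogene with its site 4 bases after its start, had 17.4% and 19.9% in control and 18.9% and 19.3% under ascorbic acid on 6480 to 9873 reads, overlapping, a change of 0.44 points (adjusted p = 0.786, edgeR). RPL8P4, a ribosomal protein pseudogene, was the member called higher, with 10.4% and 13.9% in control and 16.5% and 13.2% under ascorbic acid on 7332 to 9181 reads (adjusted p = 0.017 with edgeR and 0.415 with limma). Its groups overlapped, and its log2 odds change of 0.33 became 0.10 without control replicate 1 (adjusted p = 0.552, edgeR) and 0.14 without ascorbic acid replicate 1 (0.639).

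Among members at 60% or more in control with at least 200 reads in every library, the 5 with the smallest changes were ATP5F1B, LOC110467533, RPL41P4, INO80B and EIF1B, and 3 of these were called lower. INO80B, a subunit of the INO80 chromatin remodeller (chr2, position 74457879), had 82.1% and 82.6% in control and 69.1% and 70.4% under ascorbic acid on 641 to 815 reads (adjusted p = 1.59e-07 with edgeR and 0.0521 with limma). EIF1B, a translation initiation factor that helps select the start codon (chr3, position 40312107), had 76.7% and 79.7% in control and 64.0% and 64.5% under ascorbic acid on 1307 to 1692 reads (adjusted p = 1.01e-09 with edgeR and 0.0541 with limma). LOC110467533, a pseudogene, had 90.9% and 90.1% in control and 93.1% and 90.4% under ascorbic acid on 334 to 692 reads and did not pass (adjusted p = 0.6, edgeR). INO80B and EIF1B thus differed between the groups without overlap, and LOC110467533 overlapped. RPL41P4, described with the pseudogenes, kept its edgeR call in 1 of the 4 fits that left out a library, and without ascorbic acid replicate 2 its log2 odds change of -0.43 became -0.25 (adjusted p = 0.434).

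The highest member was LOC110467526, a pseudogene with 99.7% and 99.5% in control and 98.5% and 97.9% under ascorbic acid on 190 to 334 reads (adjusted p = 0.0793, edgeR). SMIM12P1 had 96.7% and 96.2% in control and 95.2% and 90.6% under ascorbic acid, and LINC00869, a long noncoding RNA, 96.9% and 96.0% in control and 81.5% and 86.7% under ascorbic acid on 25 to 32 reads. In all 3 the treated libraries lay below the controls, but none passed the edgeR test, while LINC00869 passed with limma (adjusted p = 0.0312). LOC645937 and ZBED1P1, also above 90% in control, overlapped between the groups or met at their edges.

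Pseudogenes formed the largest class of members, and many are copies of expressed genes. For 99 of the 121 a parent gene could be read from the symbol, and for 77 of these copies the parent had comparable sites. HMGN2 and HNRNPA1 each had 5 copies among the members, and TUBB8, RPL19 and PTMA had 3 each. For 22 copies the parent had a comparable site at the same distance, within 20 bases, from the start or the end of the gene. Some copies shared a parent site, as the 3 copies of RPL19 did, so the pairs are not all separate. The median absolute difference in control level between copy and parent was then 5.64 points, and 16 of the 22 were within 10 points. Copy minus parent ran from -17.2 points (MRPS21P6) to 32.0 points (SLC25A1P4). Copy and parent were both lower with ascorbic acid in 11 of the 22 pairs. By edgeR 6 copies and 6 parents were called lower, and both were in 3 pairs. Reads of near-identical copies can be assigned to either gene, so the levels of these copies are uncertain, and the share of reads from the parent was not tested.

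PTMAP4 and its parent PTMA, which encodes prothymosin alpha, were at 15.8% and 14.9% in control and 13.2% and 12.4% under ascorbic acid, with mean changes of -2.62 and -2.52 points. TUBB4BP3 and the tubulin gene TUBB4B were at 88.0% and 85.8% in control and 84.9% and 82.5% under ascorbic acid. TARBP2P1 and TARBP2, a partner of Dicer, were at 43.1% and 42.7% in control and 35.5% and 35.7% under ascorbic acid. In these 3 pairs copy and parent lay within 3 points of each other in each group. RPL41P4 and RPL41 were not as close: the copy, at 60.6% in control, changed by -7.02 points, and the parent, at 66.6%, by -19.8 points. The pairs were picked after their values were seen, and PTMAP4, called lower by edgeR, was called in 1 of the 4 fits that left out a library. By class, 20 of the 121 pseudogenes were called lower, or 16.5%, against 25.6% of the other sites in pseudogenes, and 26 of the 99 protein coding members, or 26.3%, against 27.4% of the other sites in protein coding genes (edgeR). Of the 22 long noncoding RNAs 3 were called lower (13.6%, against 20.0% of the other sites of that class), and of the 24 genes with no RefSeq match 1 was (4.17%, against 20.5%). Of the 7 small RNA genes none was, and 3 of those 7 had both treated libraries above both controls. Their class also took every RefSeq class not named above. Its 24 other sites, 20.8% of them called lower, lay in genes with a median span of 31985 bases. The members' median span there was 86 bases, so these shares are no like comparison.

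U2 small nuclear RNA, which pairs with the intron branch point during splicing and has no poly(A) tail, was among the small RNA members. The site of RNU2-1 (chr17, position 43233948, minus strand) is base 30 of the RNA, the position where U2 is known to carry m6Am. Its level was 73.9% and 82.6% in control and 73.2% and 75.4% under ascorbic acid on 69 to 161 reads, overlapping and not past the test (adjusted p = 0.506, edgeR). The U2 pseudogene RNU2-23P (chr11, position 65147613) had 72.3% and 81.1% in control and 61.8% and 76.3% under ascorbic acid (adjusted p = 0.128, edgeR). The other small RNA members were 5 microRNA loci and the mitochondrial tRNA gene TRNC. MIR632 had 23.8% and 25.7% in control and 26.8% and 30.1% under ascorbic acid on 239 to 443 reads (adjusted p = 0.324, edgeR), and it was named after its values were seen. Whether reads at a microRNA locus came from a longer host transcript was not tested.

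Gene coverage, the authors' deposited measure of reads over a gene, passed the limma test as lower with ascorbic acid for these U2 genes alone among the members; 5 members did under the replicate block. Coverage scaled between libraries was 119.9 and 114.0 in control and 54.5 and 44.1 under ascorbic acid for RNU2-1, a log2 change of -1.25 ± 0.104 (SE; adjusted p = 0.0175, limma). For RNU2-23P it was 257.9 and 282.9 in control and 119.0 and 123.4 under ascorbic acid, a log2 change of -1.16 ± 0.0668 (SE; adjusted p = 0.0128, limma). The groups were well apart for both, and since the copies are alike, they may share reads. These 2 were the members called lower by limma of 273, and 0 were called higher, where 0.0422% and 0.253% of all 11848 genes were. At an unadjusted p under 0.05 limma marked 35 members. Without control replicate 1, 16 members were called higher and 13 lower, so the counts of coverage calls rest on that library. Coverage was scaled between libraries, so these changes are relative to other genes and give no amount of RNA per cell. How much U2 was carried through the mRNA capture was not measured. The labels themselves differ here, since they name total RNA as the molecule and mRNA capture beads in the extraction. The 50 members whose site was called lower had a median log2 coverage change of 0.02, and for none did coverage pass the limma test (5 at an unadjusted p under 0.05).

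By gene list, 36 members belonged to at least 1 of 22 lists of families and pathways, and the lists are read here by their counts alone. The respiratory chain list had the most members by count, 8 of 83 genes with a comparable site (9.64%, against 2.53% of all comparable genes): UQCRH, called lower, and COX8A, ATP5F1B, NDUFB1, NDUFS6, NDUFB8, SDHAF4 and ATP5MD, which did not pass. Of these 8 sites 4 lay at the gene start, and 1 of 8 called lower compares with 45 of the list's 238 other sites (18.9%) and 25.7% of all comparable sites. The members' median change in the list was -0.344 points against -4.89 for all comparable sites. NDUFS6 had 22.7% and 32.5% in control and 22.6% and 24.4% under ascorbic acid, and NDUFB8 12.5% and 19.6% in control and 21.3% and 18.9% under ascorbic acid. Both overlapped between the groups (adjusted p = 0.402 and 0.647, edgeR).

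A small nucleolar RNA host, an antisense transcript and a splicing factor were called lower. SNHG1, which hosts small nucleolar RNAs in its introns, had 16.4% and 19.9% in control and 10.3% and 13.9% under ascorbic acid (adjusted p = 0.0177 with edgeR and 0.139 with limma), and ARRDC3-AS1, 1 of 6 members among antisense transcripts, had 54.5% and 45.5% in control and 19.2% and 29.4% under ascorbic acid on 22 to 34 reads (adjusted p = 0.0358 with edgeR and 0.0411 with limma). SF3B6, a protein of the U2 snRNP that contacts the branch point, had 37.5% and 36.7% in control and 31.1% and 30.1% under ascorbic acid on 1415 to 2428 reads (adjusted p = 0.000813 with edgeR and 0.253 with limma). The treated libraries lay below the controls in all 3. With 1 library left out edgeR did not call SNHG1 in 2 of the 4 fits (adjusted p = 0.201 without control replicate 2 and 0.26 without ascorbic acid replicate 1), SF3B6 in 1 (0.0784 without ascorbic acid replicate 2) and ARRDC3-AS1 in any (0.0603 to 0.213). EPB41L4A-AS1, TMC3-AS1, the LINC transcripts LINC02113 and LINC01023 and the other 3 antisense members did not pass.

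The TMEM list had TMEM31 at 75.8% and 75.6% in control and 54.3% and 61.0% under ascorbic acid, which missed the edgeR threshold (adjusted p = 0.0525) and passed with limma (0.0427). TMEM161B, the histone gene H3-3A, the zinc finger genes ZNF611 and ZNF214, the carrier SLC15A1, the mitochondrial genes CHCHD6 and TIMM17B and C4orf48 did not pass. H3-3A, which encodes the replacement histone H3.3, had 38.9% and 40.1% in control and 41.4% and 42.3% under ascorbic acid on 1317 to 2406 reads (adjusted p = 0.351, edgeR). Its treated libraries lay above both controls.

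Of the genes tied to m6A and ascorbate, none of the 28 m6A machinery genes with a comparable site was a member. The list of ascorbate and iron handling had 1 member, GSTO2, which reduces dehydroascorbate back to ascorbate. Its site (chr10, position 104299268) was at 51.7% and 47.4% in control and 34.1% and 14.8% under ascorbic acid on 29 to 61 reads, a change of -25.1 points (adjusted p = 0.00629 with edgeR and 0.0967 with limma). The groups did not overlap, but the 2 treated libraries lay far apart. Without ascorbic acid replicate 2 the log2 odds change of -1.70 became -0.90 (adjusted p = 0.306, edgeR), and without control replicate 1 or 2 it was not called either (0.0672 and 0.0621). The list of Fe(II) and 2-oxoglutarate dioxygenases also had 1 member, JMJD7, a lysyl hydroxylase, at 72.7% and 61.9% in control and 68.0% and 80.6% under ascorbic acid on 21 to 31 reads, overlapping and not past the test (adjusted p = 0.605, edgeR).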

How the data were processed

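GLORI libraries of HEK293T mRNA, 2 control and 2 ascorbic acid, came as 1 table of sites each. Per the submitters' processing notes reads were handled with Trimmomatic 0.39 and STAR on hg38 (GRCh38); the site caller was not given in the sources used here. The whole-number A and A plus G counts per site are the authors' unscaled counts. The level is a fraction deposited by the authors as A over A plus G and matched the counts within 6e-06, and the conversion rate is a second fraction the authors gave. Gene coverage is a signal deposited by the authors, whose unit no source defines. The deposited p-value of each site is the authors' test against background, per the file headers, and was not used. No listed site had under 15 reads or a level under 10%, so losses to below 10% could not be members.

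Sites with at least 20 reads in all 4 libraries were tested with edgeR 4.0.16 (quasi-likelihood, A and G reads, a term per library), and coverage, divided by each library's median ratio, with limma 3.58.1 on the log2 scale; p-values are two-sided and Benjamini-Hochberg adjusted at 0.05. For sites limma took log2 odds, each read number raised by 0.5, and DESeq2 1.42.0 was also run. Gene class, span and start came from the RefSeq table of GRCh38.p14, in which 242 members matched by symbol and 7 by synonym. On simulated reads at the members' depths, fitted with all 78509 sites, edgeR recovered 28% of sites changed by 1 in log2 odds and 64% of those changed by 2, with 9 false calls. There 100 sites were changed at each size, and the others held no change and counting error alone. In the data 25.7% of sites were called lower and the libraries of a group varied beyond counting error. The recovered shares are therefore not those of the real test. Scripts ran in R 4.3.3 and Python 3.11.15 (pandas 2.3.3, numpy 2.4.6, matplotlib 3.10.9, scipy 1.17.1).

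The text names the 10 largest falls with at least 50 reads in every library, past the edgeR threshold and without overlap (35 met these terms, and no rise did), the 5 highest in control, the 5 with the most reads, the 5 with the smallest change among those at 60% or more with at least 200 reads, up to 3 per list by p, and coverage calls; others are said to be named after their values were seen. The members, lists and rules were chosen with earlier results of these data known.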

Additional observations from a re-analysis of the deposited data

How the results depend on the processing

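edgeR called 50 members lower. Other settings called 22 (limma), 17 (DESeq2), 37 (a minimum of 50 reads), 48 (no minimum), 51 (named genes alone) and 49 (replicate block); leaving out 1 library gave 25 to 40, and the lone library of a group was then assumed to vary like the other group. Without pseudogenes 30 were lower and 0 higher; limma and DESeq2 called 0 higher, and leaving out 1 library gave 0 to 1. Elsewhere than the start 48 were lower, 20 with limma, 15 with DESeq2, 29 without pseudogenes and 24 to 37 with 1 library left out. At the start 1 was lower, 0 without pseudogenes and 0 to 1 with 1 library left out. Limma called 9 coding and 10 pseudogene members lower (edgeR 26 and 20), and 0 in the respiratory chain list. The members' change of -4.74 points became -4.12 with the deposited conversion rate taken off, -3.41 at 50 reads or more, -2.47 with reads summed, -6.14 over all genes with 1 tested site, -3.89 without pseudogenes and unmatched genes, and -5.16 to -4.32 with 1 library left out. The difference from other sites, 2.62, was 0.79, 3.98 and 1.40 at levels of 10 to 30%, 60 to 90% and 90% or more, 4.92 at 100 reads or more, 1.44 against genes with further listed sites, and 1.83 to 3.401 with 1 library left out. Start minus elsewhere, 4.73, became 5.67 for distance 0 alone, 3.11 up to 49 bases after the start, 3.23 without pseudogenes, 2.43, 2.47 and -7.22 in the 3 level classes (the last over 3 sites), and -1.82, 5.69 and 2.98 in the 3 read classes (the first over 6 sites), so its sign turned in those thinly filled classes; it was 4.06 to 5.41 with 1 library left out. The change near the gene end, -3.93, was -6.38 to -1.48 with 1 library left out, and the split by the start in its place gave 4.73. The start windows, level and read classes there, leaving out pseudogenes from counts and the crossed numbers were chosen after seeing the data.

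Same-numbered libraries did not deviate together (correlation of deviations -0.00046 for levels and -0.163 for coverage). Counting error makes up much of the spread in levels (chi-square 1.35 and 1.20 per member site, where 1 is counting error alone). The correlation therefore could not decide whether the numbers pair the samples. For coverage, where 0 members were higher and 2 lower, the replicate block gave 2 and 5, the crossed pairing 2 and 3, scaling by the sum 1 higher, and leaving out 1 library 0 to 16 higher and 2 to 13 lower. Of 31 edgeR calls at members named in the text limma lost 19 and DESeq2 16, the replicate block none, and no direction turned. Depth went with calling: 15 of 128 members with under 50 reads in a library were called lower (11.7%), against 30.7% of the 88 with 100 or more. For the other sites in named genes these shares were 16.5% and 35.8%.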
